A study of Mus musculus with 6 samples.

Results

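Tubulin isotypes are the alpha- and beta-tubulins encoded by separate genes, and 10 of them were followed here: Tuba1a, Tuba1b, Tuba1c, Tuba3a and Tuba8 among the alpha-tubulins, and Tubb2a, Tubb2b, Tubb3, Tubb5 and Tubb6 among the beta-tubulins. They were taken by gene symbol, as every non-control probe of the array whose gene name equals one of these symbols, which gave 15 probes of the 55681 non-control probes, or 10 of the 34797 gene names they carry. The rule used no measured value. All 10 symbols were found in a RefSeq mouse gene table. The study asked whether a higher amount of folic acid (FA) in the diet of the dam alters gene expression in the cerebellum of newborn pups. C57BL/6J dams received an AIN-93G amino acid diet with FA at 2 mg/kg (the control group) or 20 mg/kg, from the week before mating and through pregnancy, and RNA was taken from pups of postnatal day 1 (P1). For each sex there was 1 array of the 2 mg group and 2 arrays of the 20 mg group, and each of these 6 arrays was hybridized with RNA pooled from 3 pups of different dams. The labels describe a repeated extraction from another batch of pups for the 20 mg groups, without saying which array holds it, and 1 label field names whole brain where the titles name cerebellum.

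Alpha- and beta-tubulin pair into the dimers from which microtubules are built, the tracks and struts of dividing cells, migrating neurons and growing axons. Newborn neurons make very large amounts of tubulin while axons and dendrites extend, and they favour some isotypes over others. Tuba1a, Tubb2a, Tubb2b and Tubb3 are grouped here as neuronal isotypes, since they are abundant in young neurons, and Tuba1b, Tuba1c, Tubb5 and Tubb6 as broad isotypes, since most tissues make them. Tuba3a, best known from testis, and Tuba8, best known from muscle and testis, are grouped as restricted isotypes. Several tubulin genes, Tuba1a, Tubb2b and Tubb3 among them, are known for malformations of the human cortex when mutated.

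The arrays did not measure equally well. The share of probes well above background ran from 51.1% to 71.9% on 5 arrays and was 23.3% on female 20 mg replicate 2. Slide 1 carried both 2 mg arrays together with female 20 mg replicate 1. Slide 2, scanned on an earlier day, carried replicate 2 of the females and replicate 1 of the males at 20 mg, and slide 3 carried the remaining array, male 20 mg replicate 2. All 15 tubulin probes were well above background on 4 arrays, and 13 were on each array of slide 2, where both Tuba3a probes were not. Levels below are log2 intensities after quantile normalization, which gives every array the same set of values, from a floor of 3.32 to a highest value of 18.7. A level belongs to its probe and is compared between arrays, never between genes. Where a gene has 2 probes, its value is that of the brighter one, by the mean over the 6 arrays. Of the markers of cerebellum and hindbrain, 4 of 9 were well above background on all 6 arrays, against 3 of 10 forebrain markers, and all 9 and all 10 were so on at least 2 arrays. On male 20 mg replicate 1, 6 of 10 forebrain markers were at least 2.5-fold above the 2 mg array (5.69% of all probes). On female 20 mg replicate 1, 3 were (1.47%), and 0 were as far below on either array. Female 20 mg replicate 2 had 2 above and 4 below (24.4% and 23.1%), and male 20 mg replicate 2 had 1 and 1 (7.42% and 5.96%). Of the 9 markers of cerebellum and hindbrain, 0 were past 2.5-fold on replicate 1 of either sex. The part of tissue outside the cerebellum in the results was not tested.

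The probes are 60 bases long and their place decides what they can tell apart. In mouse build mm9, as the array design gives it, the brighter Tuba3a probe lies at chr6:125228307-125228366 on the minus strand, and the probe of Tuba3b, a near-identical gene that is no member, at chr6:145569930-145569989 on the plus strand. They share an unbroken run of 28 bases, shown in capitals with the following pair of bases, so signal on either cannot be assigned to 1 gene with certainty.
Tuba3a: CTTCCCCACCATTGGAAATAAAGGATATat
Tuba3b: CTTCCCCACCATTGGAAATAAAGGATATgt
Next to this pair, the longest run shared by probes of different tubulin genes was 10 bases, between Tuba1c and Tuba1b. Tubb3 (chr8:125945850-125945909, plus strand), Tuba1c (chr15:98868477-98868536, plus strand) and the dimmer Tuba1a probe (chr15:98780266-98780325, minus strand) are shown because they hold AATAAA, the usual polyadenylation signal, in capitals, within a stretch of 30 bases. The position of this Tuba1a probe is the one that 4 of the 6 array files give.
Tubb3: aggggtatacttAATAAAgttactgctgtc
Tuba1c: tcctaaactgtcAATAAAggtgtttccgtt
Tuba1a: tgatgggttttaAATAAAatactccctgtc
AATAAA was found in 6 of the 15 tubulin probes and in 10.1% of all probes, and its reverse complement TTTATT in 0 of the 15 and in 3.74% of all probes. The 6 count the same site of Tuba1c, and likewise of Tuba3a, in both overlapping probes of the gene. The run shared by Tuba3a and Tuba3b above holds AATAAA as well. The 2 Tuba1b probes do not overlap on the minus strand of chromosome 15 and gave different results. The first 30 bases of the downstream probe (chr15:98761923-98761982), which is the brighter, are shown because its values stand for the gene.
Tuba1b downstream: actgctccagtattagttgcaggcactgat
The 2 Tubb2b probes overlap by 29 bases on chromosome 13, and the 2 Tuba3a probes by 51 bases, so the Tuba3a pair reads nearly the same stretch of RNA.
Tubb2b shared: ggctaaaatcacataaacctttgtgtcct

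Tubb3, the class III beta-tubulin that serves as a marker of neurons, lay lower on all 4 arrays at 20 mg than on the 2 mg array of the same sex. In females its level was 15.51 at 2 mg, with 14.91 and 14.83 on replicates 1 and 2 at 20 mg. In males it was 15.25 at 2 mg, with 13.26 and 15.15 on replicates 1 and 2 at 20 mg. After quantile normalization the female arrays at 20 mg lay close together, at 14.87 ± 0.05 (SD, n = 2), from processed signals of 116600 and 2510. In males the low mean of 14.20 ± 1.33 (SD, n = 2) came from replicate 1, on slide 2. The difference between the doses was -0.64 in females and -1.05 in males on the log2 scale. Neither passed the limma test (SE 0.95 and adjusted p = 1 in both). Scaled to a common 75th percentile instead, Tubb3 lay 0.41 above the 2 mg array on female 20 mg replicate 2, where the median of all probes was then 1.00 above. It lay below the 2 mg array on the other 3 arrays at 20 mg, with -0.74 on female 20 mg replicate 1. The female arrays at 20 mg thus did not lie close together at that scaling.

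Tubb2b, a beta-tubulin of migrating and differentiating neurons, also lay below the 2 mg level on all 4 arrays at 20 mg, with either probe. Its level was 17.03 on the female 2 mg array, 16.51 on female 20 mg replicate 1 and 16.12 on replicate 2. The male arrays gave 17.01 at 2 mg, with 15.73 and 16.91 on replicates 1 and 2 at 20 mg. The second probe gave -0.77 and -0.46 on the female arrays at 20 mg and -1.91 and -0.48 on the male ones, so both probes put the lowest level on male 20 mg replicate 1. The male difference of this second probe, -1.19 with an SE of 0.93, had the lowest p of any tubulin probe in males in the limma fit (0.211 before adjustment, adjusted p = 1). At the 75th percentile scaling the brighter probe lay 0.76 above the 2 mg array on female 20 mg replicate 2 and below it on the other 3.

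Tuba1a, the main alpha-tubulin of newborn neurons, and Tubb2a, a beta-tubulin abundant in brain, lay near their 2 mg level in females. The level of Tuba1a was 17.73 on the female 2 mg array, 17.65 on female 20 mg replicate 1 and 17.44 on replicate 2. Among the males, the 2 mg array gave 17.73 and replicates 1 and 2 at 20 mg gave 16.63 and 17.44. The level of Tuba1a was thus lowest on male 20 mg replicate 1 and within 0.29 of the 2 mg array on the other 3 arrays at 20 mg, 2 of which turned to above it at the 75th percentile scaling. Tubb2a was measured at 17.33, 17.49 and 17.43 on the female 2 mg array and female 20 mg replicates 1 and 2, and at 17.27, 16.30 and 16.80 on the corresponding male arrays. Its 2 male arrays at 20 mg were below, and its 2 female arrays at 20 mg above, the 2 mg array of their sex, but at the 75th percentile scaling female 20 mg replicate 1 lay 0.47 below it and replicate 2 lay 2.42 above. The difference between the sexes, 0.86 with an SE of 1.27, did not pass the limma test of dose by sex (adjusted p = 1). The second Tuba1a probe, which holds the polyadenylation signal, had the same sign as the first on 2 of the 4 arrays at 20 mg, and the 2 probes differed there by at most 0.41.

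**Figure D1:**
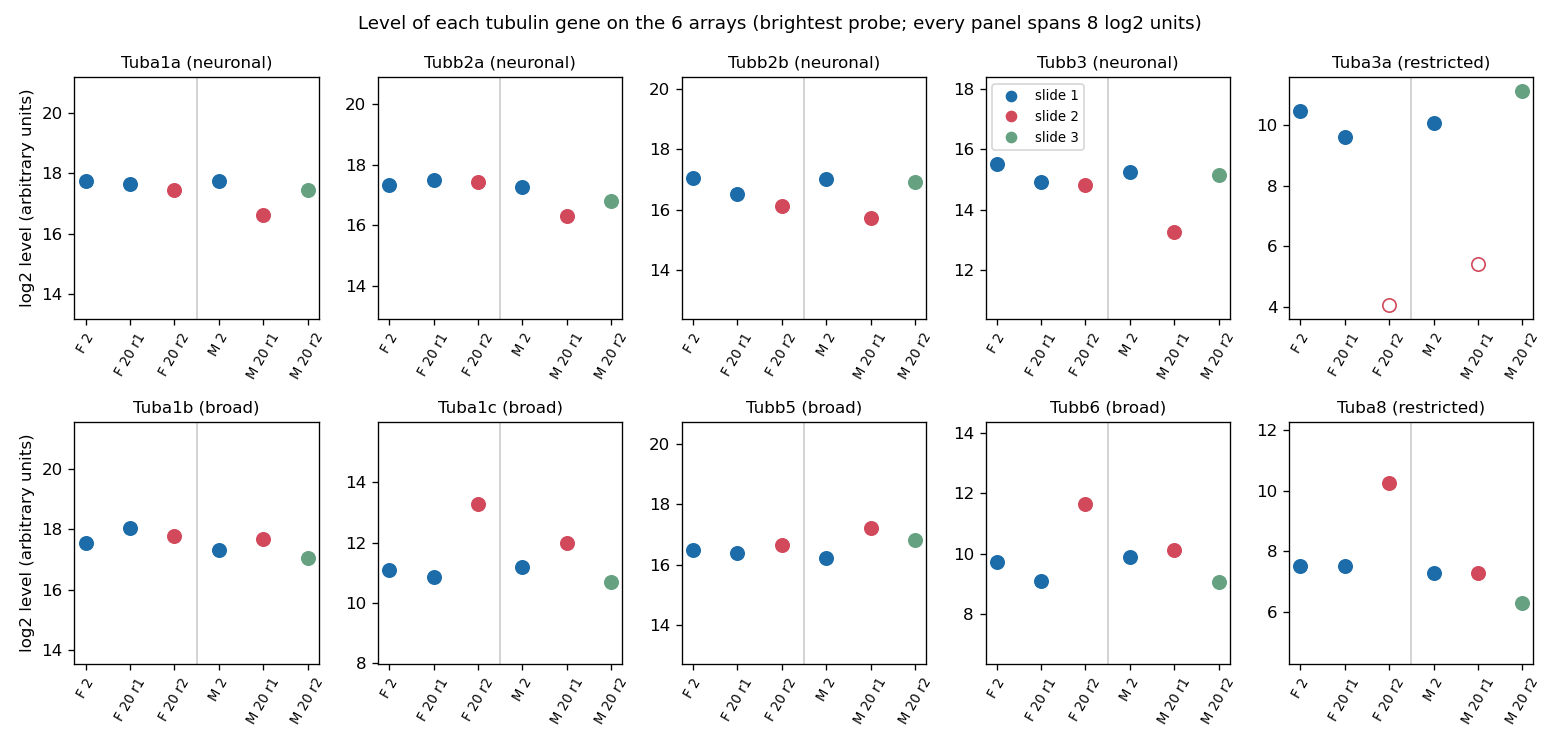
Log2 level of each tubulin gene (brightest probe, vertical axis, arbitrary units, 8 log2 units in every panel) on the 6 arrays (horizontal axis, F female and M male, 2 and 20 mg, r1 and r2 the replicates), coloured by slide, with open symbols where the probe was not well above background. Tubb3 is lowest on male 20 mg replicate 1 (13.26), Tuba1c, Tubb6 and Tuba8 are highest on female 20 mg replicate 2, and Tuba3a is low on both arrays of slide 2.

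Among the broad isotypes the arrays of slide 2 mostly stood on the upper side. Tuba1c, an alpha-tubulin of many dividing cells, was measured at 11.10 on the female 2 mg array, 10.86 on female 20 mg replicate 1 and 13.28 on replicate 2. Its male levels were 11.19 at 2 mg, and 11.97 and 10.68 on replicates 1 and 2 at 20 mg. Both of its probes, which share a run of 42 bases, gave these differences within 0.09 of each other. The 2 male arrays at 20 mg lay on either side of the 2 mg array, and so did the 2 female ones.

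Tubb6, a minor beta-tubulin of many tissues, had the same order, with 9.71, 9.09 and 11.64 on the female 2 mg array and female 20 mg replicates 1 and 2, and 9.89, 10.11 and 9.06 on the male arrays. On female 20 mg replicate 2 its level was the highest of the 6 arrays, while its processed signal before normalization, 174.8, was the lowest of the 6 (346.2 to 2462 on the others). Tuba1c had its highest level and its lowest processed signal (719.7) on that array as well. Quantile normalization sets a level by the rank of a probe on its array, so these 2 levels state a rank among the probes of a dim array and not a brighter spot.

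Tubb5, a beta-tubulin of dividing cells and of neural progenitors, was measured at 16.48, 16.39 and 16.65 on the female 2 mg array and female 20 mg replicates 1 and 2. Its level on the male 2 mg array was 16.22, and on male 20 mg replicates 1 and 2 it was 17.23 and 16.81. Both male arrays at 20 mg were above the 2 mg array, with a mean of 17.02 ± 0.29 (SD, n = 2) and a difference of 0.81 (limma SE 0.89, adjusted p = 1). At the 75th percentile scaling this difference was 0.17, with -0.01 on replicate 1 and 0.36 on replicate 2.

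Tuba1b, the alpha-tubulin most widely made by cells, gave different results with its 2 probes. The downstream probe was measured at 17.54, 18.03 and 17.80 on the female 2 mg array and female 20 mg replicates 1 and 2, and at 17.33, 17.69 and 17.06 on the male ones. The upstream probe was measured at 16.03, 16.42 and 14.67 on the same female arrays, and at 16.16, 16.47 and 16.90 on the male ones. On female 20 mg replicate 2 the downstream probe lay 0.26 above the 2 mg array and the upstream probe 1.36 below it. On male 20 mg replicate 2 the downstream probe lay 0.27 below and the upstream probe 0.74 above. On replicate 1 of either sex both probes lay above the 2 mg array, by 0.31 to 0.50, while at the 75th percentile scaling the downstream probe lay 0.37 below it in females and 0.66 below it in males. The dose differences of the 2 probes thus parted by up to 1.63, more than either probe differed between doses on any array. The cause of this disagreement was not tested.

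The restricted isotypes held the only members past the fold rule as applied here. This rule calls a gene where the mean of the 20 mg arrays differs from the 2 mg array by at least 2.5-fold after a filter on variation, has no test, and was passed by 1 member in the lower direction in males (Tuba3a; 2.17% of all probes) and by 0 members in the higher direction (1.42%). In females it was passed by 1 member in the lower direction (Tuba3a again; 10.3% of all probes) and by 1 in the higher direction (Tuba8; 8.65%). Of the 15 tubulin probes, 3 passed the variation filter, namely both Tuba3a probes and that of Tuba8, and without that filter the same counts of members were past 2.5-fold, 1 in males and 2 in females. The paper also lists Tubb3 and Tubb2b as lower by at least 2.5-fold in males. Here Tubb3 was 2.06-fold lower in males, and Tubb2b 1.62-fold by its brighter probe and 2.29-fold by the other. In the values deposited by the authors the male log2 difference was -0.95 for Tubb3 and -0.68 for the brighter Tubb2b probe, neither past 2.5-fold. The cause of this difference from the paper was not tested.

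Tuba3a was measured at 10.46 on the female 2 mg array, 9.60 on female 20 mg replicate 1 and 4.04 on replicate 2. On the male side the levels were 10.06 at 2 mg, and 5.39 and 11.14 on replicates 1 and 2 at 20 mg. The lower calls rest on the 2 arrays of slide 2, where the probe was not well above background, so that 1 of 2 arrays at 20 mg measured it in each sex. The means gave 12.4-fold lower in females and 3.47-fold lower in males, yet without male 20 mg replicate 1 the male difference was 1.08 upward, and without female 20 mg replicate 2 the female difference was -0.83, under the fold rule. The limma test passed neither (SE 2.27 and adjusted p = 1 in both). The Tuba3b probe, which shares the run of 28 bases, was measured at 6.82, 5.92 and 3.32 on the female 2 mg array and female 20 mg replicates 1 and 2, the last at the floor, and at 6.69, 5.60 and 9.40 on the male ones. It was also highest on male 20 mg replicate 2 and lowest on the 2 arrays of slide 2. Of the testis markers Tnp1, Tnp2, Prm1, Prm2, Acrv1 and Ldhc, 0 of 6 were well above background on all 6 arrays and 3 on at least 2 arrays. Their median level lay between 4.04 and 5.19.

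Tuba8 was measured at 7.51 on the female 2 mg array, 7.52 on female 20 mg replicate 1 and 10.24 on replicate 2. The male levels were 7.27 at 2 mg, and 7.27 and 6.28 on replicates 1 and 2 at 20 mg. The female call of 2.60-fold rests on replicate 2, whose processed signal of 53.81 was the lowest of the 6 arrays, and without that array the female difference was 0.02. The limma difference in females was 1.38 with an SE of 2.03 (adjusted p = 1).

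**Figure D2:**
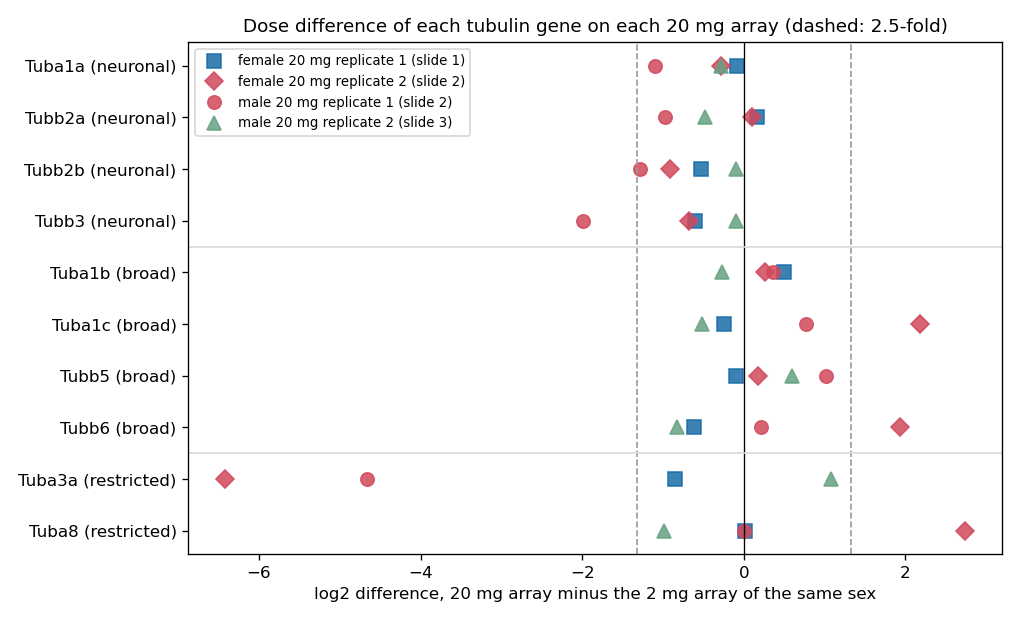
Log2 difference of each 20 mg array from the 2 mg array of the same sex (horizontal axis) for each tubulin gene (vertical axis, brightest probe), with symbols for the 4 arrays at 20 mg coloured by slide and dashed lines at 2.5-fold. The points beyond the dashed lines all belong to the 2 arrays of slide 2, with Tuba3a at -6.42 and -4.67, Tubb3 at -1.99, Tuba8 at 2.74, Tuba1c at 2.18 and Tubb6 at 1.93.

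Array by array, the members past 2.5-fold without the variation filter were counted beside the share of all probes past it. Whether the counts depart from those shares was not tested. On female 20 mg replicate 1, which shares slide 1 with its 2 mg array, 0 of 10 members were past it in either direction (2.49% of all probes lower and 1.47% higher). On female 20 mg replicate 2, 1 member was lower, Tuba3a, and 3 were higher, Tuba1c, Tubb6 and Tuba8 (23.1% and 24.4% of all probes). On male 20 mg replicate 1, 2 members were lower, Tubb3 and Tuba3a, and 0 were higher (9.14% and 5.69%). On male 20 mg replicate 2, on slide 3, 0 were past it in either direction (5.96% and 7.42%).

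Over the 4 groups, limma called 0 of 15 tubulin probes and 0% of the 37222 probes tested in males, 0% in females, 0% over both sexes and 0% for dose by sex. At an unadjusted p under 0.05 it found 74 probes in males, 161 in females, 145 over both sexes and 51 for dose by sex, and 0 tubulin probes in any of these. The lowest unadjusted p of a tubulin probe was 0.211 in males, 0.123 in females, 0.0939 over both sexes and 0.46 for dose by sex. The fit has 2 residual degrees of freedom and assumes that the lone 2 mg arrays vary like those at 20 mg, and with slide as a fixed block in a fit of dose, sex and slide (1 residual degree of freedom) the lowest was 0.16. The median dose difference of the 10 members was -0.59 in males, where it was -0.04 over all probes of the fit, and 0.08 in females, where it was -0.21. At 75th percentile scaling the female median was 0.79, against 0.45 over all probes.

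Neuronal and broad isotypes parted on slide 2. With each gene centred on its mean over the 6 arrays, the mean of the 4 neuronal isotypes minus that of the 4 broad ones was 0.63 on the female 2 mg array, 0.48 on female 20 mg replicate 1 and -0.96 on female 20 mg replicate 2. On the male arrays it was 0.59 at 2 mg, with -1.34 and 0.60 on replicates 1 and 2 at 20 mg. The 2 arrays of slide 2 thus lay below 0 and the other 4 arrays between 0.48 and 0.63, at either dose. As a dose difference, the neuronal isotypes averaged -0.79 and the broad ones 0.17 in males, and -0.36 and 0.51 in females. The gap between them was -0.96 in males and -0.87 in females, and came to -1.93 on male 20 mg replicate 1 and -1.58 on female 20 mg replicate 2, against 0.01 on male 20 mg replicate 2 and -0.15 on female 20 mg replicate 1, the 1 comparison within a slide. Without male 20 mg replicate 1 the male gap was -0.0047, without female 20 mg replicate 2 the female gap was -0.13, and without both arrays of slide 2 they were 0.01 and -0.14. A shift of a whole array cancels in this gap, which at 75th percentile scaling was -0.91 in males and -0.65 in females. A rank on a dim array need not cancel. On female 20 mg replicate 2 the broad isotypes averaged 1.13. Tuba1c lay there at 2.18 and Tubb6 at 1.93, while Tuba1b lay at 0.26 and Tubb5 at 0.17. The upstream Tuba1b probe, which is not in this mean, lay at -1.36.

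**Figure D3:**
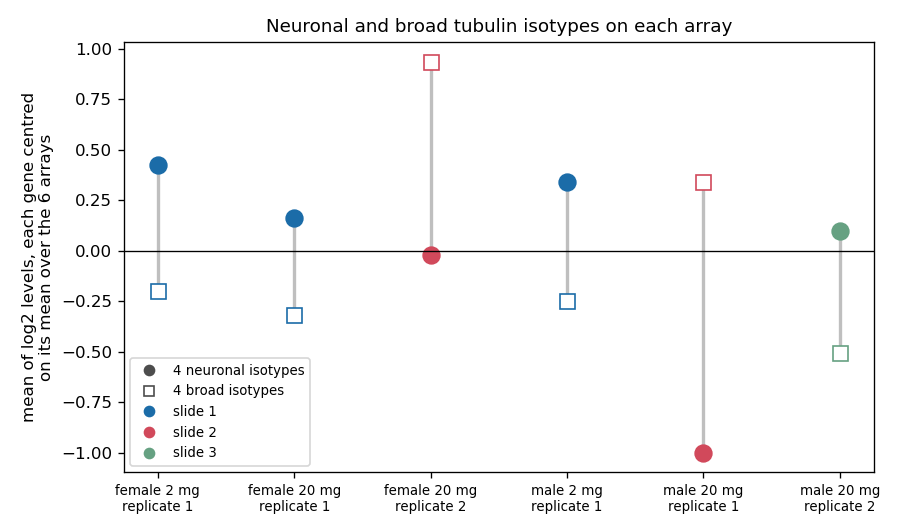
Mean log2 level of the 4 neuronal (filled circles) and 4 broad (open squares) isotypes, each gene centred on its mean over the 6 arrays (vertical axis), for each array (horizontal axis) and coloured by slide. The neuronal mean lies above the broad mean on the 4 arrays of slides 1 and 3, by 0.48 to 0.63, and below it on the 2 arrays of slide 2, by 0.96 and 1.34.

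Markers of newborn neurons went both ways on male 20 mg replicate 1, where all 4 neuronal isotypes lay below the 2 mg array. All 10 markers of newborn neurons (Dcx, Stmn2, Elavl3, Elavl4, Snap25, Nefl, Ina, Gap43, Rbfox3 and Nsg1) were well above background on all 6 arrays, and their median level was 14.6 on male 20 mg replicate 1, inside the range of 14.3 to 14.9 of the 4 arrays off slide 2. On female 20 mg replicate 2 it was 13.4. The median dose difference of these markers was 0.05 on male 20 mg replicate 1, where the neuronal isotypes averaged -1.34. There Gap43, a protein of growth cones, lay at -1.57 and Stmn2, a protein that destabilizes microtubules, at -1.11, while Rbfox3, a nuclear protein of neurons, lay at 0.89 and Dcx, a microtubule-binding protein of migrating neurons, at 0.82. The median was -1.23 on female 20 mg replicate 2, where the neuronal isotypes averaged -0.45. In a pool of tissue, fewer neurons and less tubulin RNA per neuron cannot be told apart. Of 6 choroid plexus markers, 4 were past 2.5-fold higher on each female array at 20 mg, where 1.47% of all probes were on replicate 1 and 24.4% on replicate 2. Their median level was 7.29 on the female 2 mg array, 10.3 and 10.0 on the female 20 mg arrays and 8.72 to 8.94 on the male arrays, with Kl at the floor on female 20 mg replicate 2, and their part in the tubulin values was not tested.

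The probes whose pattern over the 6 arrays came nearest to Tubb3 were sought among 12427 probes that were well above background on all of them, by the root mean square (RMS) difference of centred log2 levels. Nearest were Gm5481 (0.152), Ttyh1, a membrane protein of neural cells (0.165), Slfn9 (0.175), the dimmer probe of Tubb2b (0.179) and Rnf10 (0.182). Ttyh1, at 11.41, 10.71, 10.39, 11.21, 8.80 and 11.02 from female 2 mg to male 20 mg replicate 2, had the low value on male 20 mg replicate 1 that Tubb3 had. Tuba1a came at place 105 and Tubb2a at place 397, while the nearest probe of a broad isotype, Tuba1b, came at place 4095. These places describe 6 arrays that share 3 slides.

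**Figure D4:**
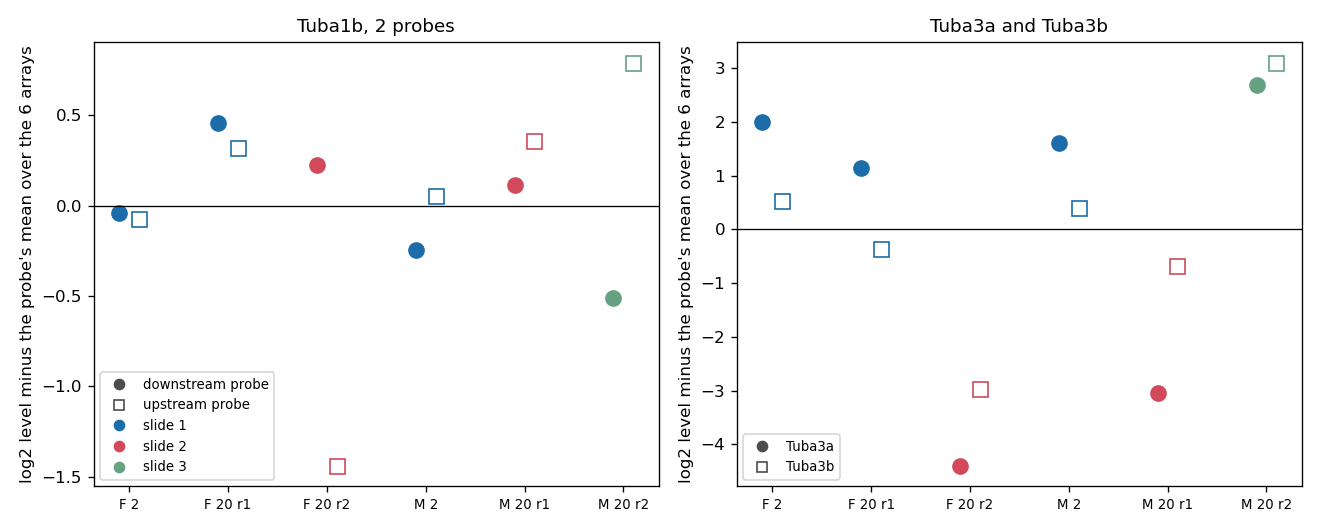
Log2 level minus the mean of the same probe over the 6 arrays (vertical axis) for the 2 Tuba1b probes (left) and for Tuba3a and Tuba3b (right) on each array (horizontal axis, F female and M male, 2 and 20 mg), coloured by slide. The Tuba1b probes part on female 20 mg replicate 2 and male 20 mg replicate 2, while Tuba3a and Tuba3b are both lowest on slide 2 and highest on male 20 mg replicate 2.

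Of the other tubulins, 10 of 12 listed symbols were on the array and 9 were well above background on at least 2 arrays. In females 3 of them passed the fold rule in the lower direction (10.3% of all probes) and 0 in the higher (8.65%). In males 0 passed (2.17% lower and 1.42% higher). The 3 were Tuba4a, an alpha-tubulin of brain and muscle, at -1.43, Tuba3b at -2.20 and Tubb1, the beta-tubulin of platelets, at -1.55, and among the female arrays all of them lay past 2.5-fold on 20 mg replicate 2 and none on replicate 1. Tuba3b and Tubb1 were well above background on 5 of the 6 arrays. Both were lowest on female 20 mg replicate 2, at 3.32, the floor, and at 5.70. Tubb4b, a beta-tubulin of many tissues and of cilia, differed by 0.56 in females and -0.04 in males, and Tubb4a, of the mature brain, by 0.05 and 0.32. Tubg1, the gamma-tubulin that starts new microtubules, was measured at 0.96 above the 2 mg array in males (1.24 and 0.68 on the 2 arrays) and 0.16 in females, and did not pass the rule.

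Genes that fold, modify, bind or nucleate tubulin were counted by list. Of 20 folding genes, which include the chaperonin CCT, prefoldin and the tubulin cofactors, 1 passed the fold rule in the lower direction in males and 4 in females, and 0 in the higher direction in either. The shares over all probes for this and the following lists were 2.17% lower and 1.42% higher in males, and 10.3% lower and 8.65% higher in females. Pfdn4, a subunit of prefoldin that hands unfolded tubulin to CCT, was the 1 gene of the pathway lists past 2.5-fold in 1 direction on both 20 mg arrays of a sex. It was measured at 10.97 on the male 2 mg array, 8.70 on male 20 mg replicate 1 and 9.45 on replicate 2, and at 10.75, 11.21 and 6.49 on the female arrays, so that female 20 mg replicate 1 lay on the other side of the 2 mg level. Of 15 enzymes of tubulin modification on the array 1 passed in females, lower, and 0 passed in males. Of 20 microtubule binding and severing genes on the array 2 passed lower and 1 higher in females and 0 in males, and of 9 nucleation genes 2 passed lower in females and 0 in males. On female 20 mg replicate 1 the folding list had a median of 0.40 and on replicate 2 of -1.84, and in males of 0.48 and -0.48. The limma fit called 0 genes of these 5 lists.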

How the data were processed

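RNA of P1 cerebellum was measured on 6 single-colour Agilent arrays. The deposited scanner files hold processed, mean and background intensities, written by Agilent Feature Extraction (10.7.3.1 per the submitters' processing notes) and not scaled between arrays. The log2 values of the deposited value table were quantile normalized and floored by the authors in BRB-ArrayTools, and served as an alternative. The 10 genes, their classes, the lists and the tests were chosen with earlier results of these data known.

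Outlier spots were left out, the spots of a probe averaged, and the log2 intensities of all 6 arrays quantile normalized, then given a linear floor of 10. The fold rule (2.5-fold, variation filter p at or under 0.05, at most 50% missing) followed the methods of the study. The variation filter kept 15247 probes. Limma 3.58.1 (R 4.3.3) fitted 4 groups to probes well above background on at least 2 arrays. It used empirical Bayes, a trend and Benjamini-Hochberg adjustment at 0.05. The fit was tried on simulated arrays with a large added change and equal noise on every array, which does not measure its power on these arrays. The p-values rest on the spread between the 2 arrays at 20 mg of each sex, which held different pools on different slides. Pool, slide and array quality cannot be told apart in that spread. The single 2 mg array of each sex adds nothing to it and limits the precision. Empirical Bayes draws the spread of each probe toward that of all probes of like level, so the SE followed a probe's own replicates little. It was 0.89 for Tubb5 and 0.95 for Tubb3. Their SDs at 20 mg were 0.29 and 1.33 in males, and 0.19 and 0.05 in females. Named beside the members were up to 4 genes of a list past 2.5-fold on both 20 mg arrays of a sex, other tubulins and neuron markers chosen after their values were seen, and the 5 probes nearest to Tubb3. Alternatives were another scaling, floor, background correction, source of values, probe rule, filter, threshold and model, each 20 mg array left out, and, added after the data were seen, both arrays of slide 2 left out. Positions are those of mm9 in the array design. The sequence of 1 tubulin probe is not reported here.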

Additional observations from a re-analysis of the deposited data

Results flagged for a closer look

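For Tubb2a, both male arrays at 20 mg lay below the male 2 mg array (-0.977 and -0.478 on the log2 scale) and both female arrays at 20 mg above the female one (0.159 and 0.0976), though at the 75th percentile scaling female 20 mg replicate 1 lay below it (-0.472). The female difference exceeded the male one by 0.856, which limma's test of dose by sex did not pass (adjusted p = 1). For Tuba8, the male values were -0.000919 and -0.987 and the female values 0.0148 and 2.74, a difference between the sexes of 1.87 that did not pass that test either (adjusted p = 1). A value of each sex lay within 0.015 of 0 for Tuba8, so its opposite signs rest on female 20 mg replicate 2 and male 20 mg replicate 2.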

How the results depend on the processing

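Members past 2.5-fold in females (2) came to 1 at 75th percentile scaling and with normexp, to 0 to 2 with 1 array left out, and to 0 without slide 2. In males (1) they came to 0 with normexp, 0 to 1 with 1 array left out, and 0 without slide 2. The median of the members in females (0.0839) was 0.785 at 75th percentile scaling, where the median of all probes rose from -0.209 to 0.45, -0.17 within slide 1, -0.165 without slide 2 and -0.167 to 0.141 with 1 array left out, lowest without female 20 mg replicate 2. In males (-0.593) it was -0.267 without slide 2 and -0.608 to -0.29 with 1 array left out, highest without male 20 mg replicate 1. The Tuba3a difference in males ran from -4.75 to 1.08 with 1 array left out, turning upward without male 20 mg replicate 1, and was 1.03 without slide 2. Of the other values of single members under the alternatives, 184 stayed within the spread between replicates and 14 did not. That spread is between 2 arrays on different slides, so it is wide where a value depends on slide 2, and the 184 are no measure of stability. Among them, without female 20 mg replicate 2, the female difference went from -3.64 to -0.833 for Tuba3a and from 1.38 to 0.0159 for Tuba8. Both calls were lost there. The cause of these changes was not tested, apart from the arrays removed. The gap between neuronal and broad isotypes moved by less than its spread between replicates in every alternative run, a spread that the 2 slides of each sex set. Limma called 0 tubulin probes in any contrast and alternative, while its calls among all probes ran from 0 to 104. With the replicate number as a block it called 0 tubulin probes in males, females, both sexes and dose by sex. Over the probes of the fit, the deviations of replicate 1 from the mean of its 20 mg group had a correlation of 0.0871 between males and females. With 2 arrays per group, replicate 2 gives the same value and adds nothing. The numbers were not taken to pair the arrays. Slide as a random block could not be fitted, since no within-slide correlation could be estimated.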
